A study of Arabidopsis thaliana with 9 samples.

Results

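The chloroplast-encoded genes measured in these roots were the rows of the array table that the annotation paired with exactly 1 gene of the chloroplast genome. There were 63 such rows, each for a different protein gene, among the 16746 rows with exactly 1 gene and the 38408 rows of the whole table. The gene table held 78 chloroplast protein gene names, and the other 15 were not on a row of their own, among them psbC, psbD, atpB, atpE and ndhB. The study asked how root gene expression at low oxygen differs in plants with mutations in HCR1, the gene AT3G24715. The groups were the mutants hcr1-1 and hcr1-2 and the wild type Col-0, each with 3 arrays, and the labels give Col-0 as the ecotype of all of them. All plants were 21 days old and grew in hydroponics at a pO2 of 11.1 ± 1.1% with potassium supplied, so every comparison is between genotypes within low oxygen and none is with well-aerated roots. Each array carried root RNA of a pool of 5 plants. The labels do not place the lesion of either allele, and an allele is 1 mutant line here.

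Plastids keep a small genome of their own, whose genes fall into those for photosynthetic complexes and those for the machinery that reads the genome. Many of its genes lie in clusters that are copied as long shared transcripts and then cut, so that neighbouring genes are not independent measurements. A bacterial-type RNA polymerase, whose core subunits are rpo genes of the plastid itself, copies most photosynthesis genes, and a polymerase of the phage type that is encoded in the nucleus copies others, among them the rpoB cluster. Root plastids do not normally build thylakoids, but their genome is still transcribed and translated.

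The HCR1 row had log2 signals of 3.46, 3.25 and 2.36 in hcr1-1 and 4.24, 4.38 and 4.3 in hcr1-2, against 4.60, 4.85 and 4.88 in Col-0. All arrays of both mutants lay below all Col-0 arrays, but neither difference passed the test (log2 difference -1.76, limma adjusted p = 0.13 in hcr1-1, and -0.48, limma adjusted p = 0.903 in hcr1-2). Of 54 listed nuclear genes for photosynthesis, which mark green tissue, 9 were on a tested row, and their row means ran between 1.26 (LHCB4.3) and 5.09 (PSBW), around the quartiles of all tested rows (1.99, 3.51 and 5.22). Their mean deviation from the Col-0 mean lay between -0.11 and -0.0037 in the hcr1-1 arrays and between -0.045 and 0.086 in the hcr1-2 arrays, against -0.076 to 0.098 in the Col-0 arrays, and their part in the chloroplast values was not tested. Of 22 listed markers of root cell types, 4 were on tested rows, the root hair genes EXPA7 (4.73) and EXPA18 (3.84) and the cell division genes AUR1 (5.79) and AUR2 (3.99), while the endodermis and xylem markers were not on tested rows. The mean deviation of these 4 was 0.0059, 0.16 and -0.049 in the hcr1-1 arrays and 0.23, 0.20 and 0.13 in the hcr1-2 arrays, against -0.034, -0.11 and 0.14 in the Col-0 arrays, and its part in the chloroplast values was not tested. None of the 4 passed the test, and the differences furthest from 0 were those of AUR2 (0.39) and EXPA18 (0.37) in hcr1-2 (limma adjusted p = 0.903 for each). In bulk RNA, fewer cells of a type and less RNA per cell cannot be told apart.

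The chloroplast rows were among the brightest of the table. Their means over the 9 arrays lay between 6.19 (psbT) and 11.24 (rpl20) on the log2 scale, all 63 were above the third quartile of the tested rows, and 59 were at or above their 95th percentile of 7.15. The rows under 7 were psbT, psbM (6.31) and rps16 (6.41). Rows differ in their probes and values are not per length, so the signals of different genes give no order of transcript amounts.

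Every functional class held bright rows. The 5 rows of photosystem I (psa) had signals of 9.26 to 10.47 with a median of 9.51, and the 13 rows of photosystem II (psb) had 6.19 to 11.02 with a median of 9.16. The 6 rows of the cytochrome complex between the photosystems (pet) had 8.13 to 10.38, with a median of 9.71, and the 4 rows of the ATP synthase (atp) had 9.29 to 10.64, with a median of 10.09. The 10 rows of the NADH dehydrogenase-like complex (ndh), which returns electrons to the photosynthetic chain, had 7.13 to 9.23 with a median of 8.35.

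Among the genes for gene expression, the 7 rows of small-subunit ribosomal proteins (rps) had signals of 6.41 to 9.89 with a median of 9.42. The 6 rows of large-subunit proteins (rpl) had 7.82 to 11.24 with a median of 10.48, and the 4 rows of the plastid RNA polymerase (rpo) had up to 9.45 with a median of 8.83. The 8 remaining rows had 7.63 to 11.02 with a median of 10.12. They were rbcL (the large subunit of Rubisco), accD (a subunit of the acetyl-CoA carboxylase of fatty acid synthesis), clpP (the proteolytic subunit of the Clp protease), matK (an intron maturase), ycf3 and ycf4 (photosystem I assembly), cemA (an envelope membrane protein) and ccsA (haem attachment to c-type cytochromes).

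**Figure D1:**
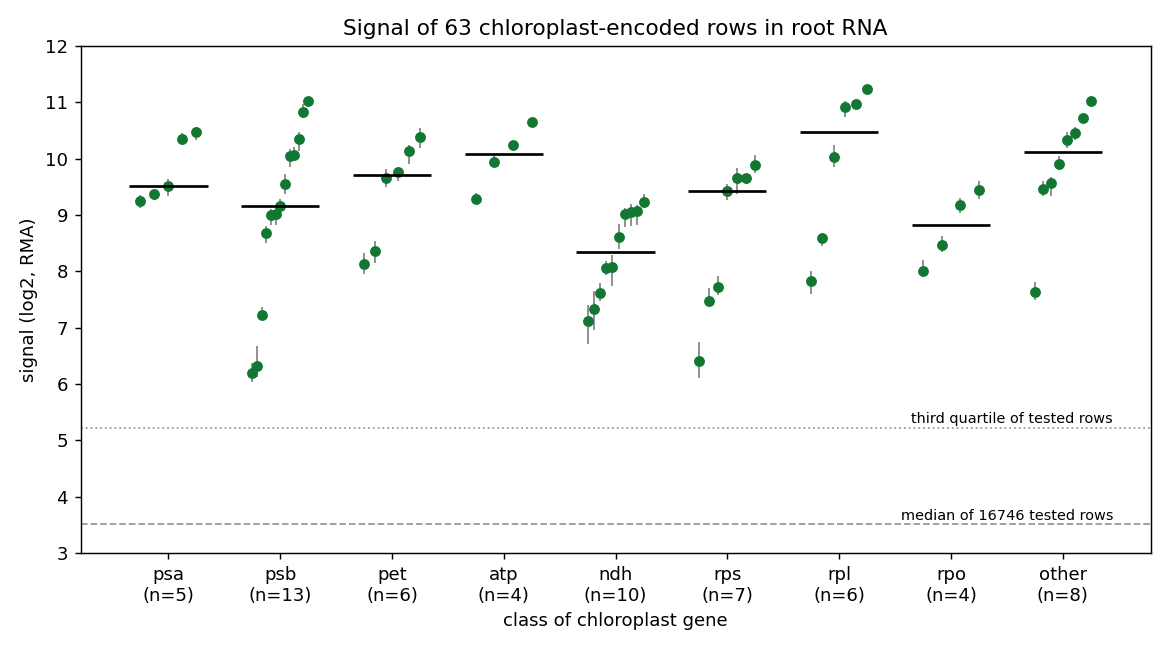
Mean log2 signal over the 9 arrays of each of the 63 chloroplast rows, by functional class. Thin lines span the lowest and highest array, short bars are class medians, and the lines across are the median and upper quartile of all 16746 tested rows. All 63 points lie above the third quartile of 5.22, and the ndh rows lie between 7.13 and 9.23.

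The chloroplast rows also varied little between arrays. The median within-genotype SD was 0.0946 over the 63 rows, against 0.115 over the 1990 other tested rows in the same range of signal and 0.175 over all tested rows. The median range over all 9 arrays was 0.299 for the chloroplast rows, against 0.364 for those other rows and 0.551 for all tested rows. Those other rows shared only the limits of the range and were dimmer, with a median signal of 6.92 against 9.42 for the chloroplast rows. They are therefore not a comparison at equal signal. Dimmer chloroplast rows varied more (Spearman rho of -0.606 between signal and SD over the 63 rows, which share the arrays and in part their transcripts).

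No chloroplast gene differed between genotypes past the threshold. In hcr1-1 against Col-0, 0 of 63 rows passed a limma adjusted p of 0.05, as did 0% of all tested rows, and 0 of 63 had an unadjusted p under 0.05, against 3.24% of all tested rows. In hcr1-2 against Col-0, 0 of 63 passed after adjustment (0% of all tested rows) and 0 of 63 before it (5.4% of all tested rows). With both alleles averaged, 0 of 63 differed from Col-0 after adjustment (0% of all tested rows) and 0 of 63 before it, against 3.73%. The shares before adjustment are not for rows of equal spread, since the chloroplast rows varied less and the fit drew all rows towards 1 shared spread. With trended and robust variances, 1 row in hcr1-1, 3 in hcr1-2 and 3 for both alleles had an unadjusted limma p under 0.05. The lowest adjusted p among the chloroplast rows was 1.00 in hcr1-1, 0.926 in hcr1-2 and 0.998 for both alleles together (limma).

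By the limma intervals, the size that these arrays leave possible was small. The largest fitted differences from Col-0 were 0.16 in hcr1-1 and 0.18 in hcr1-2 on the log2 scale, without regard to sign, both in psbT. The median half-width of the 95% intervals was 0.243 for each allele. The 95% intervals of all 63 rows lay within a 1.5-fold difference (0.58 on the log2 scale) in either allele. The outermost bounds were -0.46 (rps16) and 0.46 (ndhI) in hcr1-1, and -0.48 (ndhF) and 0.44 (psbT) in hcr1-2. These intervals are for single rows and are not adjusted for the number of rows. The limma fit also drew the spread of each row towards 1 value for all tested rows, which varied more. For rpl20 the within-genotype SD was 0.021 and the SE of the difference was 0.096 in each allele. The widths therefore reflect that shared value as well as the spread of the chloroplast rows.

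**Figure D2:**
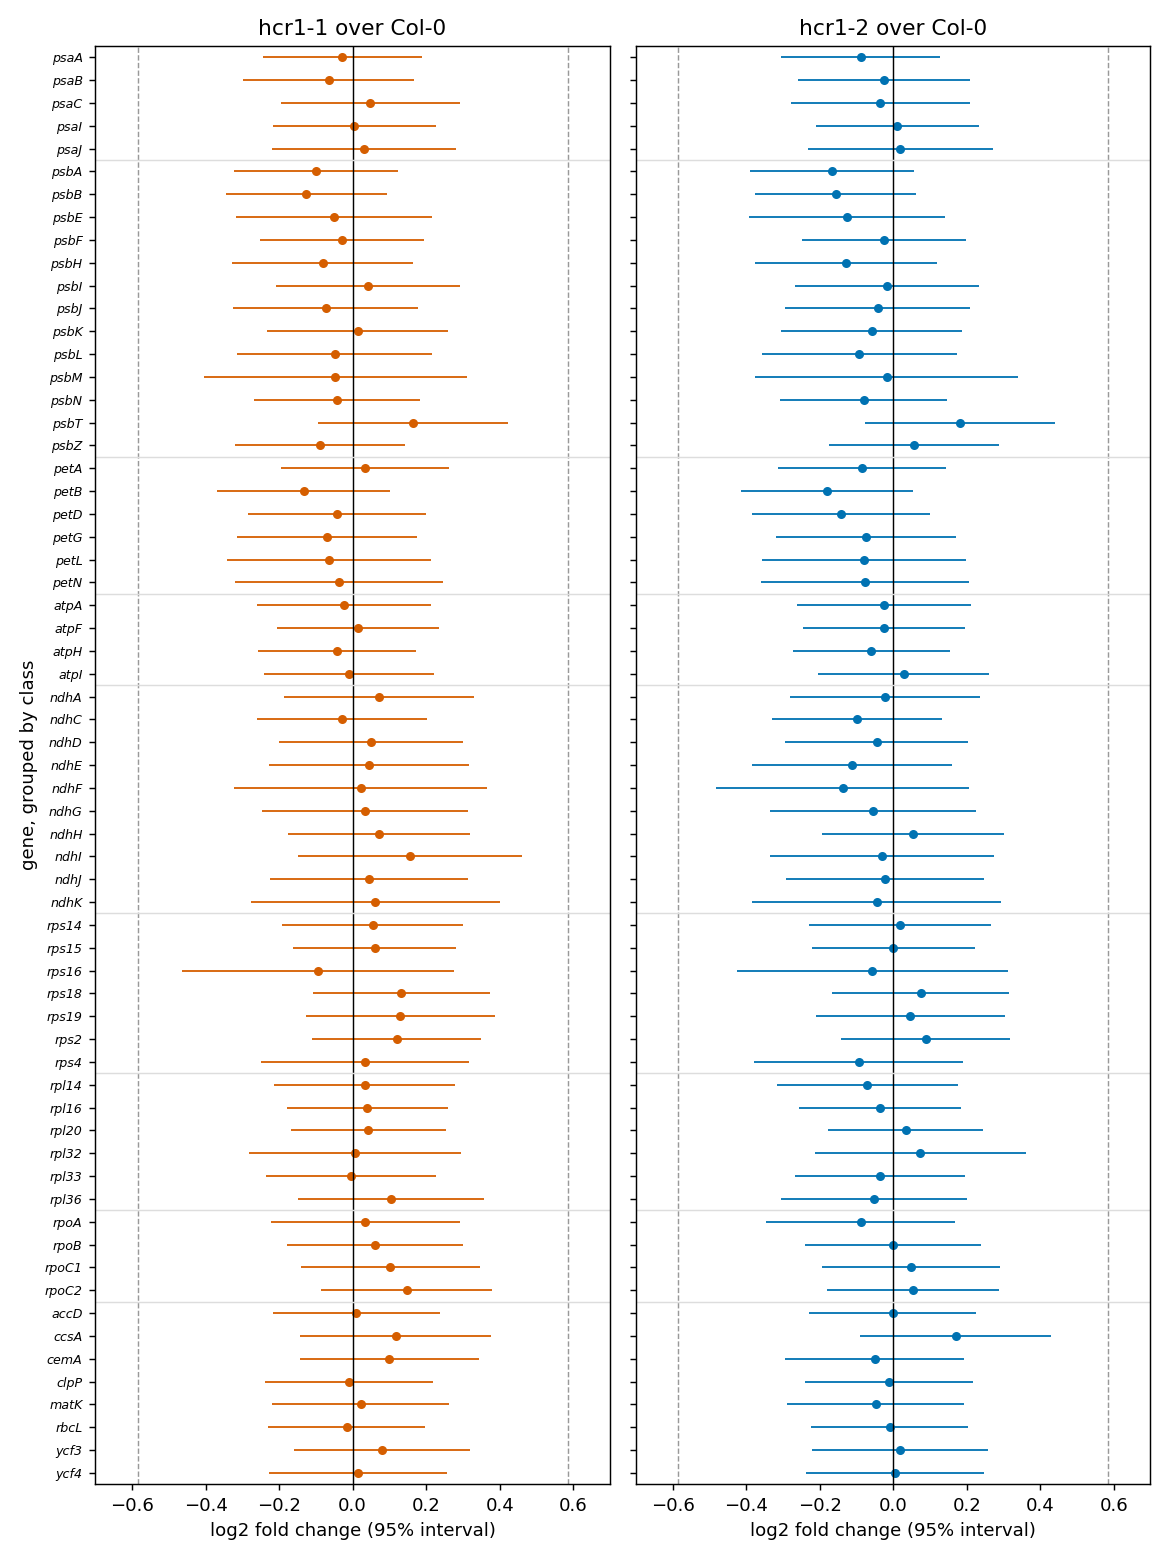
Fitted log2 difference from Col-0 of each chloroplast row in hcr1-1 and hcr1-2 with its 95% interval, by class, with lines at a 1.5-fold difference. Every interval includes 0 and stays within the 1.5-fold lines.

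Some rows had arrays that did not overlap between genotypes. In hcr1-1, 7 rows had all 3 arrays above all Col-0 arrays (rps2, rpoC2, cemA, rpl20, psbT, rps19 and ndhI), which is 11.1% of the chloroplast rows against 5.18% of all tested rows. The 2 rows wholly below Col-0 in hcr1-1 were psbB and petB, 3.17% against 4.02% of all tested rows. In hcr1-2 no row lay wholly above Col-0 (6.1% of all tested rows did), and 4 lay wholly below it (psbA, psaA, psbB and petD), 6.35% against 4.34% of all tested rows. With 3 arrays against 3, an exact permutation test cannot give a two-sided p below 0.1, and the rows share arrays and transcripts. Among the 6 mutant arrays together, psbB lay wholly below Col-0, and no other chloroplast row lay wholly on either side (0.711% of all tested rows lay wholly below, 1.11% wholly above and 1.82% on either side).

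The median difference over the 63 rows was 0.021 in hcr1-1, where 38 rows were above Col-0 and 25 below, beside a median of 0.003 over all tested rows, of which 50.9% were above. In hcr1-2 the median was -0.035, with 19 rows above Col-0 and 44 below, beside 0.011 over all tested rows, of which 53% were above. Both comparisons share the Col-0 arrays. The signs of these medians depended on the scaling and on single arrays. Quantile normalization gave -0.035 in hcr1-1, with 21 rows above and 42 below, and leaving out hcr1-2 replicate 1 gave 0.026 in hcr1-2. In hcr1-1 the median was -0.012 without replicate 1.

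Photosystem I rows differed little. psaB, which with psaA forms the core of the photosystem I reaction centre, had log2 signals of 10.49, 10.42 and 10.40 in hcr1-1 and 10.34, 10.54 and 10.56 in hcr1-2, against 10.54, 10.52 and 10.45 in Col-0. All 3 groups overlapped, and the differences were -0.07 and -0.02. psaA had 10.36, 10.36 and 10.37 in hcr1-1 and 10.25, 10.31 and 10.36 in hcr1-2, against 10.36, 10.36 and 10.45 in Col-0. The hcr1-2 arrays of psaA lay below the Col-0 arrays by a narrow margin, and the hcr1-1 arrays overlapped them (differences of -0.03 and -0.09, exact permutation p = 0.5 and 0.1). The class median was 0.0044 in hcr1-1, with 3 rows above Col-0 and 2 below, and -0.024 in hcr1-2, with 2 above and 3 below.

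In photosystem II, 10 of 13 rows were fitted below Col-0 in hcr1-1 (median -0.049) and 11 of 13 in hcr1-2 (median -0.059), none past the test. psbA encodes the D1 protein of the reaction centre and had 10.85, 10.73 and 10.89 in hcr1-1 and 10.75, 10.74 and 10.77 in hcr1-2, against 10.95, 10.85 and 10.96 in Col-0. The hcr1-2 arrays were all lower than the Col-0 arrays and the hcr1-1 arrays overlapped them. The fitted differences of psbA were -0.10 ± 0.10 in hcr1-1 and -0.17 ± 0.10 in hcr1-2 (SE, n = 3, limma adjusted p = 1.00 and 0.933).

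psbB encodes the inner antenna protein CP47 and had 10.10, 10.03 and 9.98 in hcr1-1 and 9.97, 10.00 and 10.04 in hcr1-2, against 10.21, 10.13 and 10.14 in Col-0. Every mutant array was lower than every Col-0 array, with differences of -0.13 in hcr1-1 and -0.16 in hcr1-2. Over both alleles the exact permutation p of psbB was 0.012, the smallest that 6 arrays against 3 can give, and its limma p was 0.129 before adjustment and 0.998 after it. The limma SE over both alleles was 0.086, while the within-genotype SD of psbB was 0.048. The permutation p is not adjusted for the 63 rows. Of these, 1.59% separated in this way, against 1.82% of all tested rows.

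psbH, psbE, psbL, psbN and psbJ, further subunits or neighbours of the photosystem II genes, were also fitted below Col-0 in both alleles, at -0.08 to -0.04 in hcr1-1 and -0.13 to -0.04 in hcr1-2. psbF, a small subunit of the reaction-centre cytochrome and the brightest psb row, had 11.05, 11.05 and 10.92 in hcr1-1 and 10.94, 11.03 and 11.06 in hcr1-2, against 11.08, 11.02 and 11.00 in Col-0. Its groups overlapped. psbZ, which encodes a small subunit at the edge of the complex, had 9.05, 9.10 and 9.06 in hcr1-2 and 9.05, 8.90 and 8.82 in hcr1-1, against 9.01, 9.06 and 8.96 in Col-0. The difference between the alleles was 0.14 in psbZ (limma adjusted p = 0.923). Its differences from Col-0 were 0.06 in hcr1-2 and -0.09 in hcr1-1, and both mutants overlapped Col-0. psbT, another small subunit, had 6.28, 6.32 and 6.12 in hcr1-1 and 6.07, 6.34 and 6.37 in hcr1-2, against 6.12, 6.08 and 6.03 in Col-0. The hcr1-1 arrays of psbT all lay above Col-0, replicate 3 by a narrow margin, and 1 hcr1-2 array lay among the Col-0 arrays. The differences of 0.16 and 0.18 did not pass (limma adjusted p = 1.00 and 0.934).

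The cytochrome complex rows were below Col-0 in 5 of 6 cases in hcr1-1 (median -0.053) and in 6 of 6 in hcr1-2 (median -0.081). petB, which encodes the cytochrome b subunit, had 10.31, 10.36 and 10.39 in hcr1-1 and 10.19, 10.29 and 10.44 in hcr1-2, against 10.54, 10.48 and 10.44 in Col-0. All hcr1-1 arrays were below Col-0, and in hcr1-2 replicate 3 was level with the lowest Col-0 array. The differences of petB were -0.13 ± 0.11 in hcr1-1 and -0.18 ± 0.11 in hcr1-2 (SE, n = 3, limma adjusted p = 1.00 and 0.926). petA, which encodes cytochrome f, was the exception in hcr1-1, at 0.03.

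The ATP synthase rows were the steadiest class, with differences of -0.04 to 0.02 in hcr1-1 and -0.06 to 0.03 in hcr1-2. atpH, which encodes the subunit of the membrane ring, had 10.63, 10.65 and 10.63 in hcr1-1 and 10.58, 10.60 and 10.67 in hcr1-2, against 10.71, 10.68 and 10.64 in Col-0. Both mutants overlapped the low end of Col-0.

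The ndh rows leaned in opposite directions in the alleles, with 9 of 10 above Col-0 in hcr1-1 (median 0.047) and 9 of 10 below Col-0 in hcr1-2 (median -0.045). ndhI, an iron-sulfur subunit, had 7.75, 7.97 and 8.29 in hcr1-2 and 8.26, 8.08 and 8.23 in hcr1-1, against 8.08, 8.06 and 7.96 in Col-0. The hcr1-1 arrays of ndhI were all above Col-0, replicate 2 by a narrow margin. The hcr1-2 arrays reached both below and above all the others (differences from Col-0 of -0.03 in hcr1-2 and 0.16 in hcr1-1). ndhF, a membrane subunit, had 6.72, 7.08 and 7.28 in hcr1-2 and 7.19, 7.19 and 7.18 in hcr1-1, against 7.41, 7.13 and 6.95 in Col-0. The spread of ndhF within hcr1-2 and within Col-0 exceeded the difference between any of the genotypes. ndhH, the brightest ndh row, had 9.18, 9.15 and 9.38 in hcr1-2 and 9.38, 9.13 and 9.26 in hcr1-1, against 9.20, 9.18 and 9.17 in Col-0.

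The lean of the ndh rows below Col-0 in hcr1-2 rested on hcr1-2 replicate 1. Without it, 8 of 10 ndh rows were above Col-0 in hcr1-2 and the class median was 0.041. The mean ndh deviation from Col-0 was -0.23, -0.073 and 0.15 in the hcr1-2 arrays and 0.12, -0.0079 and 0.044 in the hcr1-1 arrays, against 0.057, 0.0048 and -0.062 in the Col-0 arrays. No other class had array means that spread as much within genotypes (SD 0.122, against 0.052 to 0.090 in the psa, psb, pet, atp, rps, rpl, rpo and remaining rows).

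Ribosomal protein rows were above Col-0 more often than below it in hcr1-1, with 6 of 7 rps rows (median 0.060) and 5 of 6 rpl rows (median 0.037). In hcr1-2 the counts were 5 of 7 rps rows (median 0.019) and 2 of 6 rpl rows (median -0.036). The mean deviation of the rps rows from Col-0 was 0.157, 0.0056 and 0.025 in the hcr1-1 arrays. It was -0.102, 0.013 and 0.123 in the hcr1-2 arrays, against 0.073, -0.016 and -0.057 in the Col-0 arrays. rps19 had 10.07, 9.88 and 9.92 in hcr1-1 and 9.74, 9.82 and 10.06 in hcr1-2, against 9.82, 9.84 and 9.82 in Col-0. The hcr1-1 arrays of rps19 were all above Col-0 and the hcr1-2 arrays lay on both sides of it (0.13 and 0.05). rps18 had 7.92, 7.68 and 7.74 in hcr1-1 and 7.67, 7.82 and 7.69 in hcr1-2, against 7.70, 7.66 and 7.59 in Col-0. Both mutants overlapped Col-0 in rps18, at differences of 0.13 and 0.08.

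rps4 was among the less steady rows, with 9.84, 9.66 and 9.61 in hcr1-1 and 9.37, 9.62 and 9.74 in hcr1-2, against 9.78, 9.69 and 9.54 in Col-0. Its groups overlapped throughout (0.03 and -0.09). rpl20, the brightest chloroplast row, had 11.24, 11.28 and 11.25 in hcr1-1 and 11.22, 11.24 and 11.28 in hcr1-2, against 11.22, 11.22 and 11.20 in Col-0. Its hcr1-1 arrays were above Col-0 by a difference of only 0.04, and its range over all 9 arrays was 0.080, the lowest of the 63 rows.

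The remaining rpl rows described by array overlapped between genotypes. rpl36 had 10.24, 9.96 and 10.18 in hcr1-1 and 9.85, 10.02 and 10.04 in hcr1-2, against 10.08, 10.01 and 9.97 in Col-0. rpl32 had 7.88, 7.70 and 7.83 in hcr1-1 and 7.60, 8.01 and 8.0 in hcr1-2, against 7.84, 7.84 and 7.71 in Col-0. In each of rpl36 and rpl32 the lowest array was hcr1-2 replicate 1.

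All 4 polymerase rows were above Col-0 in hcr1-1 (median 0.081), and 3 of 4 in hcr1-2 (median 0.024). Their mean deviation from Col-0 was 0.167, -0.0023 and 0.093 in the hcr1-1 arrays. It was -0.085, -0.019 and 0.115 in the hcr1-2 arrays, against 0.056, -0.031 and -0.025 in the Col-0 arrays. rpoC2, which encodes a subunit of the polymerase core, had 9.30, 9.21 and 9.26 in hcr1-1 and 9.04, 9.19 and 9.26 in hcr1-2, against 9.18, 9.06 and 9.09 in Col-0. The hcr1-1 arrays of rpoC2 were above every Col-0 array and the hcr1-2 arrays spanned the Col-0 range and more. The differences of rpoC2 were 0.15 ± 0.11 in hcr1-1 and 0.05 ± 0.11 in hcr1-2 (SE, n = 3, limma adjusted p = 1.00 and 0.967). rpoA, which encodes the alpha subunit and lies in the ribosomal protein cluster, had 9.55, 9.42 and 9.55 in hcr1-1 and 9.33, 9.28 and 9.54 in hcr1-2, against 9.61, 9.44 and 9.37 in Col-0. It overlapped in both comparisons (0.03 and -0.09).

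Of the 8 remaining rows, 6 were above Col-0 in hcr1-1 and 3 in hcr1-2, with medians of 0.018 and -0.0056. clpP had 11.03, 10.98 and 11.05 in hcr1-1 and 10.91, 11.04 and 11.10 in hcr1-2, against 11.10, 11.04 and 10.96 in Col-0, and its groups overlapped. cemA had 9.49, 9.35 and 9.66 in hcr1-2 and 9.63, 9.64 and 9.68 in hcr1-1, against 9.53, 9.54 and 9.58 in Col-0. The hcr1-1 arrays of cemA were all above Col-0 (0.10), and the hcr1-2 arrays lay on both sides (-0.05). ccsA had 7.80, 7.63 and 7.52 in hcr1-1 and 7.54, 7.77 and 7.80 in hcr1-2, against 7.56, 7.55 and 7.49 in Col-0. In each mutant 1 array of ccsA lay among the Col-0 arrays and the others above them, and the differences were 0.12 and 0.17 (limma adjusted p = 1.00 and 0.935). rbcL was nearly level, at -0.02 and -0.01.

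**Figure D3:**
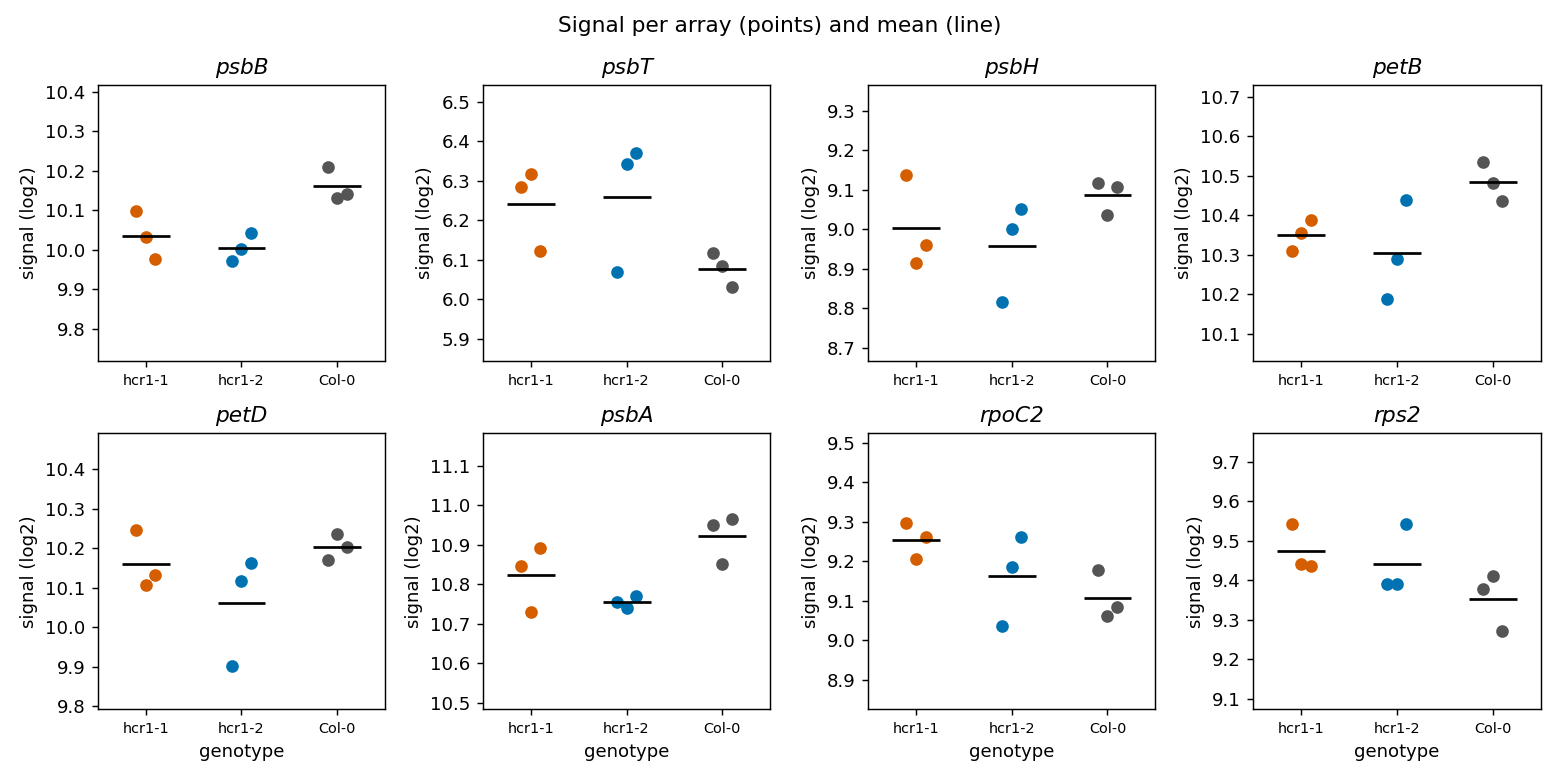
Log2 signal on each array of chloroplast rows described in the text, with hcr1-1, hcr1-2 and Col-0 from left to right and the group mean as a bar. In psbB all mutant points lie below all Col-0 points, while in the other rows shown at least 1 mutant overlaps Col-0.

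Neighbouring genes were also described together, in transcription clusters that were chosen after the values had been seen. In the psbB cluster (psbB, psbT, psbH, petB and petD), 4 of 5 rows were fitted below Col-0 in each allele, with medians of -0.082 in hcr1-1 and -0.142 in hcr1-2. psbT was above Col-0 in both although it lies next to psbB. petD, the partner of cytochrome b in its complex and not among the genes chosen by rule, was at -0.04 and -0.14. In the rpoB cluster (rpoB, rpoC1 and rpoC2), all 3 rows were above Col-0 in hcr1-1 (0.06 to 0.15), and their fitted values in hcr1-2 were between 0.00014 and 0.054.

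In the psbE cluster (psbE, psbF, psbL and psbJ), all 4 rows were below Col-0 in each allele, at medians of -0.049 and -0.067. In the ribosomal protein cluster (rpoA, rpl36, rpl14, rpl16 and rps19), all 5 rows were above Col-0 in hcr1-1 (median 0.040) and 1 of 5 in hcr1-2 (median -0.052). The 8 rows of the ndhD cluster were all above Col-0 in hcr1-1 (median 0.055), and 2 of 8 were in hcr1-2 (median -0.033). No row of these clusters passed the test in either allele.

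The 5 measured genes of the 7 listed for transcription by the nuclear-encoded polymerase (rpoB, rpoC1, rpoC2, accD and clpP) had medians of 0.060 in hcr1-1 and 0.00014 in hcr1-2, beside 0.018 and -0.039 for the other 58 rows. The 9 measured genes of the 12 listed with introns had medians of 0.015 in hcr1-1 and -0.026 in hcr1-2, beside 0.022 and -0.035 for the other 54. Splicing itself is not measured by values for whole rows.

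How the class medians held under other settings was uneven. The psb and pet medians were below 0, and the rps and rpo medians above 0, in both alleles under the deposited values, quantile normalization, median centring and centring on the other rows in the same range of signal. The atp medians were also below 0 in both alleles, but reached only -0.00015 in hcr1-2 when centred on those other rows. The ndh medians stayed above 0 in hcr1-1 and below 0 in hcr1-2. The psa and rpl medians and that of the remaining rows changed sign in at least 1 allele under at least 1 of these scalings. Without hcr1-2 replicate 1 the psb median in hcr1-2 was 0.0097, with 7 rows above Col-0 and 6 below, and the pet median was -0.024, with 5 of 6 rows below. Without that array the rps and rpo medians in hcr1-2 were 0.092 and 0.069, and the atp median was 0.0007. No class median was taken without an hcr1-1 array.

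A shift common to a whole array cancels in the difference between classes of the same array. The classes were joined after the values had been seen, so this difference is a description with no test. The 10 ndh and 4 atp rows are in neither joined class, and no setting with them was run. In hcr1-1 the mean deviation from Col-0 was 0.053 in the ndh rows and -0.015 in the atp rows, beside -0.033 in the psa, psb and pet rows. In hcr1-2 these means were -0.051, -0.020 and -0.059. The mean of the 17 rps, rpl and rpo rows minus the mean of the 24 psa, psb and pet rows, set to 0 at the Col-0 mean, was 0.105, 0.073 and 0.097 in the hcr1-1 arrays and 0.064, 0.058 and 0.057 in the hcr1-2 arrays, against -0.0018, -0.0023 and 0.0041 in the Col-0 arrays. All 6 mutant arrays lay above all 3 Col-0 arrays, and the hcr1-1 arrays lay above the hcr1-2 arrays. The order of the alleles did not hold with medians over rows or without the ribosomal protein rows. The difference averaged 0.092 ± 0.017 in hcr1-1 and 0.060 ± 0.0038 in hcr1-2 (SD, n = 3), against an SD of 0.0036 in Col-0. These spreads depended on the setting, and with medians over rows in place of means the SD was 0.033 in hcr1-1 and 0.037 in hcr1-2, against 0.014 in Col-0. In linear terms it amounted to 1.07-fold in hcr1-1 and 1.04-fold in hcr1-2.

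**Figure D4:**
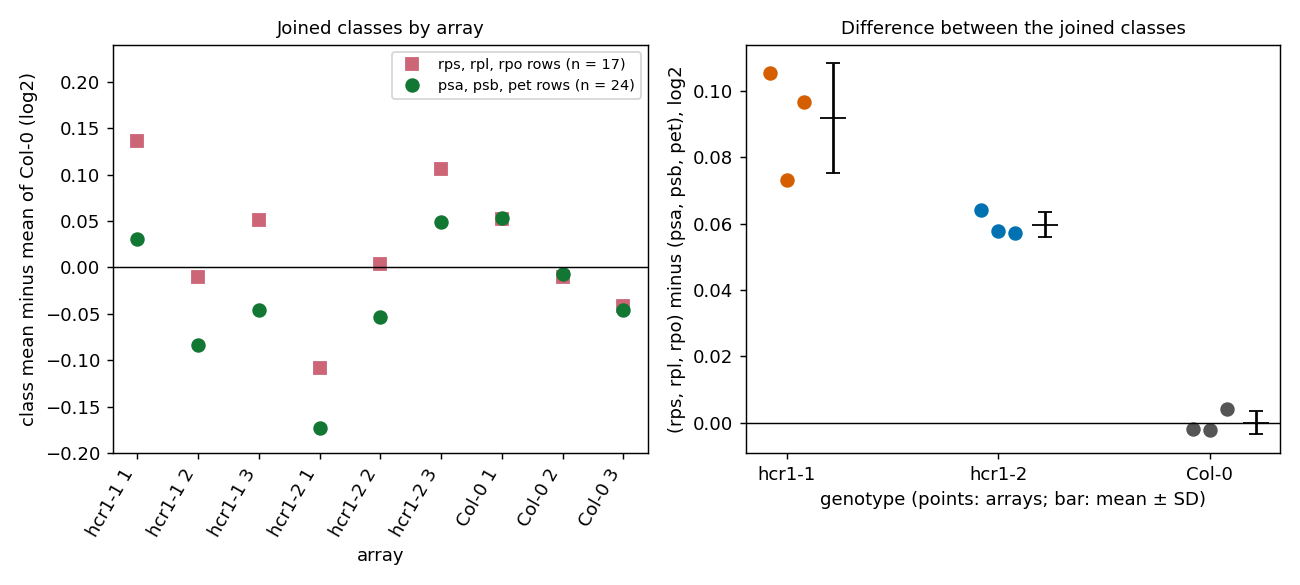
Left, the mean log2 deviation from Col-0 of the rps, rpl and rpo rows (squares) and of the psa, psb and pet rows (circles) on each array; right, the difference between them on each array (points) with the mean and SD per genotype, hcr1-1, hcr1-2 and Col-0 from left to right. On the right, the mutant arrays lie between 0.057 and 0.105 and the Col-0 arrays between -0.0023 and 0.0041.

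Whole arrays stood apart in the chloroplast rows. The mean deviation of the 63 rows from the Col-0 mean was 0.081, -0.038 and 0.0047 in the hcr1-1 arrays and -0.147, -0.033 and 0.088 in the hcr1-2 arrays, against 0.050, -0.0030 and -0.047 in the Col-0 arrays. Among the 9 arrays, hcr1-2 replicate 1 was the lowest in 42 of 63 rows and the highest in 0. hcr1-1 replicate 1 and hcr1-2 replicate 3 were each the highest in 21 rows and the lowest in 0. The SD of these array means within genotypes was 0.0814, larger than the difference between any pair of genotype means.

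Other measures stood beside these array means. The 1990 other rows in the same range of signal had mean deviations of -0.00082, -0.026 and 0.030 in the hcr1-1 arrays and -0.110, -0.0053 and 0.040 in the hcr1-2 arrays, against 0.014, 0.022 and -0.036 in the Col-0 arrays, so that hcr1-2 replicate 1 was the lowest there too. The 26 measured genes of the 48 listed core hypoxia genes had mean deviations of -0.049, -1.13 and 0.0026 in the hcr1-1 arrays and -1.08, -0.98 and -0.47 in the hcr1-2 arrays, against 0.23, -0.55 and 0.32 in the Col-0 arrays. The 3 arrays with the lowest hypoxia means (hcr1-1 replicate 2 and hcr1-2 replicates 1 and 2) all had chloroplast means below 0, as did Col-0 replicates 2 and 3, and hcr1-2 replicate 3 had a hypoxia mean below that of Col-0 and the highest chloroplast mean. The part of either measure in the chloroplast values was not tested.

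**Figure D5:**
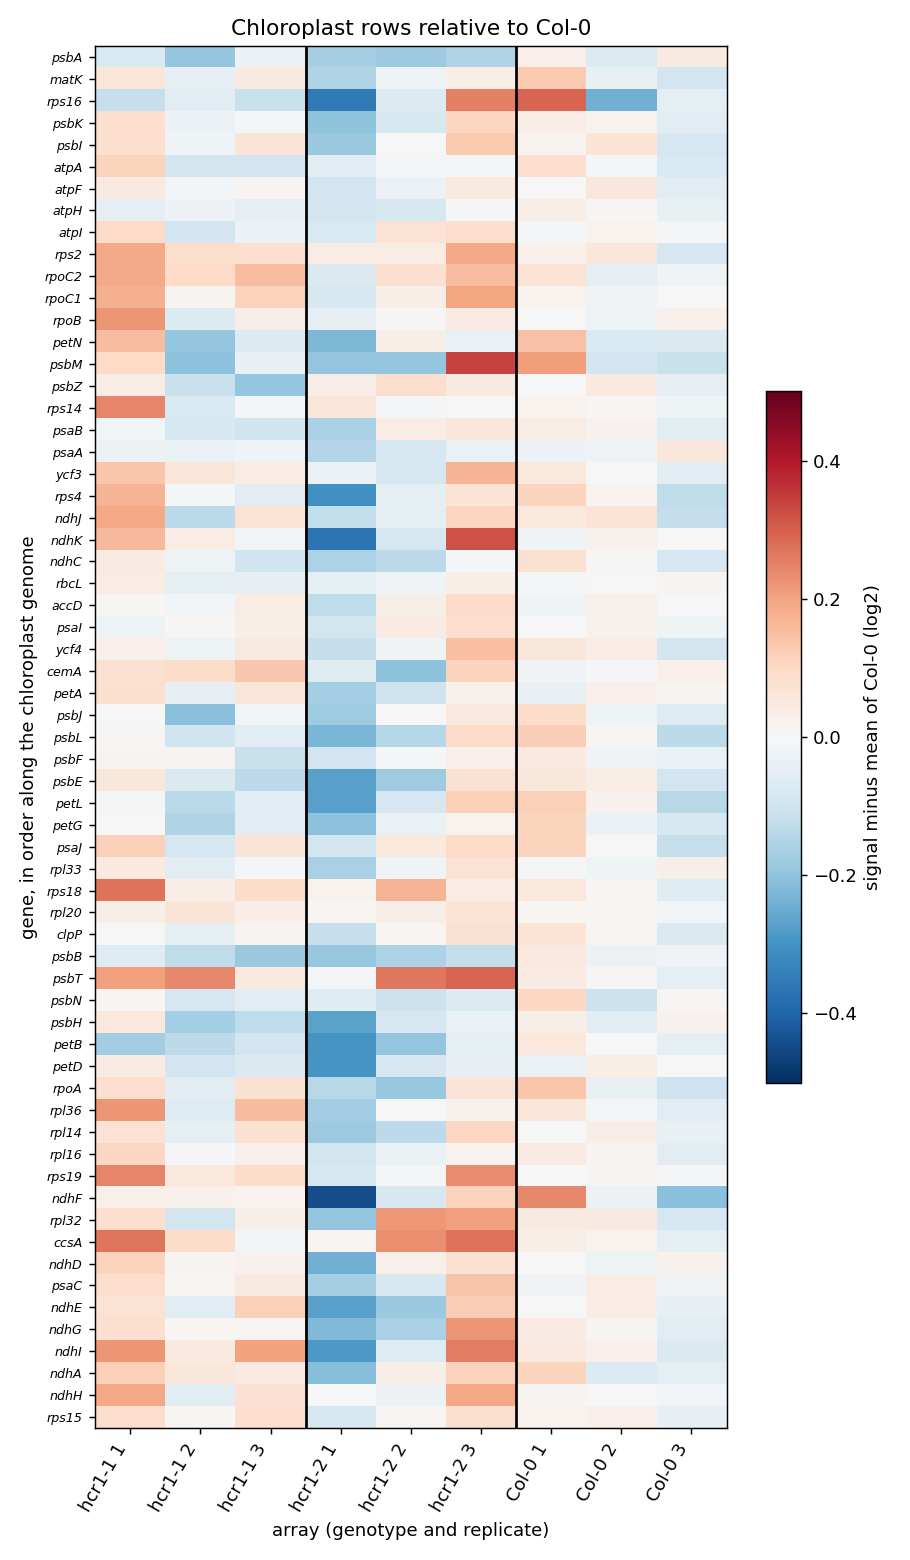
Log2 deviation (colour; red above, blue below) of each of the 63 chloroplast rows from its Col-0 mean on each array, in genome order down the page, with hcr1-1, hcr1-2 and Col-0 from left to right. The column of hcr1-2 replicate 1, with a mean of -0.147, is the lowest, and those of hcr1-1 replicate 1 and hcr1-2 replicate 3 are the highest.

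Between the alleles, no chloroplast gene differed past the threshold. In hcr1-2 against hcr1-1, 0 of 63 rows passed the limma adjusted p of 0.05 (0% of all tested rows) and 0 had an unadjusted p under 0.05, against 5.33% of all tested rows. No chloroplast row had arrays that did not overlap between the alleles, while 5.31% of all tested rows lay wholly higher and 4.54% wholly lower in hcr1-2. The fitted values were lower in hcr1-2 for 51 of 63 rows, with a median of -0.048 beside 0.007 over all tested rows, of which 51.8% were higher in hcr1-2. Without hcr1-2 replicate 1 that median was -0.00017, and under quantile normalization it was 0.0075, with 34 rows above and 29 below. The lowest unadjusted limma p among the rows were those of psbZ (0.195), cemA (0.199) and ndhI (0.201), and all 63 intervals lay within a 1.5-fold difference.

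Nuclear partners of the plastid genome were sparsely covered. Of 24 listed genes for plastid transcription, RPOTmp (an organellar RNA polymerase of the phage type) was the only gene on a tested row, with 4.46 ± 0.31 in hcr1-1 and 4.54 ± 0.18 in hcr1-2, against 4.39 ± 0.10 in Col-0 (SD, n = 3). Its differences of 0.07 and 0.14 did not pass the test. Of 20 loci listed as genes for plastid RNA processing, 3 were measured (AT2G18940, CRP1 and AT5G20220) and none passed. The list named AT5G20220 as ORRM1, a name that the gene table does not give it. AT2G18940 was at 3.41 ± 0.23 in hcr1-1 and 3.69 ± 0.10 in hcr1-2, against 3.78 ± 0.078 in Col-0 (SD, n = 3), and its difference of -0.37 in hcr1-1 had a limma p of 0.0155 before adjustment and 1.00 after it. None of the 9 measured nuclear photosynthesis genes passed in any comparison, and their median differences were -0.080 in hcr1-1 and 0.072 in hcr1-2, with 2 of 9 and 6 of 9 above Col-0.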

How the data were processed

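Root RNA (100 ng per sample) was amplified, labelled and hybridised to Affymetrix Arabidopsis Gene 1.1 ST arrays, per the labels' protocols. The deposited values are on a log2 scale and were made by the authors with Affymetrix Expression Console and RMA, a method that corrects background, equalises distributions and summarises probes, per the submitters' processing notes. Versions and the genome build are not given in the sources used here. Equalised distributions hide differences in total signal, no detection calls were used, and no scan date or slide was used, so batches could not be tested. The deposited row values were not fully equal between arrays. Their medians over all rows ran from 3.41 (Col-0 replicate 3) to 3.48 (hcr1-1 replicate 1). The number of arrays limits precision.

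Gene names came from the platform annotation and a RefSeq gene table, which also gave the gene order. Of 38408 rows, 16746 had 1 gene, 758 several and 20904 were not listed. limma 3.58.1 in R 4.3.3 (lmFit, contrasts.fit, eBayes; two-sided; Benjamini-Hochberg over 16746 rows, threshold 0.05) was fitted over all 9 arrays for 4 contrasts and checked on simulated data. The simulated rows had independent noise and changes of 1 log2 unit. That check does not cover differences as small as those here or shifts shared by a whole array. Lists and classes were described by counts and medians. Named genes were, per class, the row with the highest mean and those with the largest difference in each allele, plus the 3 smallest p per comparison (23 genes); those named beyond them were chosen after their values were seen. Members and lists were chosen with earlier results of these data known, and the gene lists after the chloroplast values had been seen. The titles call the samples biological replicates but do not say whether the pools came from separate cultures, so p-values measure the spread between these samples.

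Alternatives were the compared groups alone, a replicate block, 3 scalings, a filter on dim rows, all rows, other variance settings, array weights and each array left out.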

Additional observations from a re-analysis of the deposited data

How the results depend on the processing

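No alternative gave a chloroplast row past the threshold: 18 alternatives were run for each allele against Col-0 and for hcr1-2 against hcr1-1, and 20 for both alleles against Col-0, with a lowest limma adjusted p of 0.509 (hcr1-2 against hcr1-1, without hcr1-2 replicate 3). At most 3 of 63 rows had an unadjusted limma p under 0.05. This was reached with trended and robust variances in hcr1-2 and for both alleles. It was also reached in hcr1-2 against hcr1-1 without hcr1-2 replicate 3. Leaving out 1 array moved the median difference between -0.012 and 0.043 in hcr1-1, between -0.088 and 0.026 in hcr1-2, between -0.033 and 0.016 for both alleles and between -0.098 and -0.00017 for hcr1-2 against hcr1-1, and the number of rows called stayed at 0. The labels do not say that the replicate number pairs the samples. Of the 9 same-numbered pairs, 2 correlated above 0.1 in their deviations, which cannot show whether samples were handled together. With the replicate block the count was 0 in each comparison and the medians were 0.021, -0.035, -0.010 and -0.048. No chloroplast row had a copy on a row of its own, so leaving out the inverted repeat removed none. The following were chosen after seeing the data. The difference between the joined classes in hcr1-1 was 0.121 with medians over rows, 0.110 with rows of a mean of at least 8 and 0.119 without the ribosomal protein rows, and the cause was not tested. It was 0.0913 under quantile normalization, 0.0889 without the psbB cluster and 0.0835 without the rpo rows, and in hcr1-2 these 6 settings gave 0.0516 to 0.0685. The SD under them ran between 0.010 and 0.033 in hcr1-1 and between 0.0055 and 0.037 in hcr1-2, against 0.0038 to 0.022 in Col-0. Leaving out 1 array gave 0.0850 to 0.101 in hcr1-1 and 0.0575 to 0.0618 in hcr1-2. All mutant arrays lay above all Col-0 arrays under quantile normalization, medians, and without the psbB cluster, the dimmer rows, the ribosomal protein rows or the rpo rows. The alleles overlapped with medians over rows (hcr1-1 replicate 2 at 0.081, hcr1-2 replicate 1 at 0.093). They also overlapped without the ribosomal protein rows (the same arrays at 0.081 and 0.088). The 3 arrays per genotype and the spread shared by whole arrays limit what can be seen.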

Other observations

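Rows that several genes share were outside the comparisons, but they hold further chloroplast protein genes, and none of these rows passed the test in either allele. The row shared by psbC and psbD, the genes for the CP43 antenna and the D2 protein of photosystem II, had a mean log2 signal of 9.21 and differed from Col-0 by -0.01 in hcr1-1 and -0.16 in hcr1-2. The row shared by atpB and atpE of the ATP synthase had 9.31 and differed by -0.04 and -0.05. The ribosomal protein rows were rpl2 (10.44, with differences of 0.08 and 0.04), rpl23 (9.49, with 0.09 and 0.15), the row shared by rps3 and rpl22 (9.86, with 0.07 and 0.09), rps7 (10.04, with 0.02 and -0.06) and rps12, whose rows had 10.20 (with 0.03 and -0.05) and 11.32 (with 0.04 and 0.02).

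Genes of the inverted repeat, the part of the plastid genome present in a pair of copies, in part appeared as pairs of rows with identical values, as for ndhB, ycf2, rpl2, rpl23, rps7 and 1 pair of rps12 rows, while a further rps12 row and the ycf1 rows held values of their own. ndhB was measured with a mean log2 signal of 7.85 and differences of -0.03 in hcr1-1 and -0.15 in hcr1-2. ycf2 was measured with 8.81 and differences of 0.12 and -0.03. The row of ycf1 alone had 9.33, with differences of 0.12 and 0.03. The ycf1 rows shared with the gene AT2G07739 had 8.86 (with 0.08 and 0.001) and 7.83 (with 0.20 and 0.09). The 0.20 in hcr1-1 was larger than the 0.16 of psbT, the largest of the 63 rows in that allele. In hcr1-2 the 0.09 was smaller than the 0.18 of psbT.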
